A study of Mus musculus with 16 samples.

Results

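Mixed histology tumors are the skin carcinomas whose histological subtype was given as mixed in the sample labels. They numbered 3 of the 12 tumors and of the 16 samples in all. The 3 tumors were p53 tumor 1 and p53 tumor 7, from mice lacking p53 in stratified epithelia, and pRbp53 tumor 4, from a mouse lacking p53 and pRb, the product of Rb1, in the same tissue. They arose spontaneously and were set against 4 samples of control skin from wild type mice. Tumors and skin shared the FVB genetic background. All 12 tumors carried the label squamous cell carcinoma, and the other 9 comprised 3 poorly differentiated and 6 undifferentiated or spindle tumors. RNA of each sample was hybridised to an Affymetrix MOE430 2.0 array. Every level below is a log2 RMA signal, on which a difference of 1 is a doubling. In the study's description, the mixed class held differentiated together with undifferentiated areas. The deletion was restricted to epithelial cells, whereas RNA was taken from tissue that also held stroma. The ages of the mice are not given in the sources used here. Whether each sample came from its own animal is not stated either, so p-values measure the spread between these samples, which may be technical.

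Epidermis is built by basal keratinocytes, which carry the keratins Krt5 and Krt14 and the transcription factor p63. As these cells move up they stop dividing and switch to Krt1, Krt10 and the proteins of the cornified layer. Squamous cell carcinomas belong to this lineage and lose its genes to different degrees, down to spindle tumors with little epithelial character. Loss of p53 removes a brake on cells with damaged DNA, and loss of pRb frees the E2F factors that switch on genes of DNA replication and mitosis.

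Several arrays stood apart. For actin, the 3' probeset exceeded the 5' probeset, a gap that widens in degraded RNA, by 1.67 in p53 tumor 7 and 1.33 in control skin 3, and by 0.21 to 0.68 in the other 14 arrays. Control skin 2 and control skin 4 correlated at 0.9957 over all probesets, above the 0.9697 to 0.9843 of the other pairs of control skin. Csn2, a milk protein gene, read 3.50 in pRbp53 tumor 4 and at most 3.73 in the mixed tumors, against 3.61, 3.51, 9.83 and 4.47 in control skin 1 to 4. Xist, which is expressed in females, read 11.69, 5.72 and 11.74 in the mixed tumors, against 5.13 to 11.86 in control skin, so that both groups held high and low samples. The part of these features in the results was not tested beyond the fits that leave out or average the arrays concerned, and a fit with the actin gap as a covariate.

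Mixed tumors were compared with control skin by limma over 45037 probesets, and 3282 passed a Benjamini-Hochberg adjusted p of 0.05, or 7.29%. Of these, 1255 were higher and 2027 lower in the mixed tumors. Read as 18193 genes, each by its brightest probeset, 658 genes rose (3.62%) and 1203 fell (6.61%). The groups did not overlap for 4791 genes (26.3%), including all 1861 that passed. The number of calls depended on single arrays. It was 1749, 1575 and 1625 probesets without control skin 1, 2 and 4, 5052 without p53 tumor 7, and 1601 with control skin 2 and 4 averaged into 1 sample. For called genes named below, the highest limma adjusted p over the fits that leave out arrays, or average control skin 2 and 4, is given where a call was lost in any of them. The text then lists the single arrays without which the call was lost.

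The genes that rose most encode secreted and matrix proteins, a chromatin protein, a keratin and an interferon-induced protein. Mmp13, a collagenase, read 6.45, 9.56 and 10.21 in p53 tumor 1, p53 tumor 7 and pRbp53 tumor 4, against 3.68, 3.38, 3.90 and 3.77 in control skin 1 to 4. All tumors lay above the skin, by 5.06 ± 0.83 on the log2 scale (SE, n = 3 and 4, limma adjusted p = 0.0141). The call was lost without control skin 1, 2 or 4, with control skin 2 and 4 averaged, and without control skin 3 and p53 tumor 7 (limma adjusted p up to 0.0615). Hmga2, an architectural chromatin protein of embryonic tissue, read 10.83, 8.33 and 9.53 in the same tumors, against 5.37, 4.93, 5.70 and 4.98 in skin (difference 4.32 ± 0.55, limma adjusted p = 0.00519). Xaf1, an interferon-induced antagonist of the apoptosis inhibitor XIAP, read 8.97, 9.65 and 8.67 in the tumors, against 4.77, 4.56, 5.30 and 4.66 in skin (difference 4.27 ± 0.28, limma adjusted p = 0.000268). Its 3 tumors lay within 1 log2 unit of each other. A second probeset of Xaf1, and a second of Synpo, which encodes an actin-binding protein, passed in the other direction, so the direction given here for these 2 genes is that of the brighter probeset.

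Tnc, which encodes the wound and stroma glycoprotein tenascin C, read 9.56, 12.36 and 10.46 in the mixed tumors, against 5.97, 7.22, 6.99 and 6.30 in control skin (difference 4.17 ± 0.66, limma adjusted p = 0.0122). Plod2, which hydroxylates the lysines at which collagen is crosslinked, was nearly equal in the 3 tumors, at 9.32, 9.31 and 9.30, against 4.59, 6.13, 5.61 and 7.13 in skin. Col11a1, a collagen chain found mainly in cartilage, read 9.89, 5.97 and 10.12, against 3.71 to 4.68 in skin. The tumors were thus even for Plod2 and uneven for Col11a1, where p53 tumor 7 was low. Krt18, a keratin of simple epithelium that normal epidermis lacks, read 7.95, 9.44 and 8.86 in the tumors, against 4.35, 4.19, 6.60 and 4.05 in skin (difference 3.95 ± 0.68, limma adjusted p = 0.0168). The high skin value was that of control skin 3, and Krt18 was the 1 of 5 simple keratins to pass. S1pr3, a receptor for sphingosine-1-phosphate, differed by 3.44 ± 0.57, and Piwil2, a germline protein that binds piRNAs, by 3.36 ± 0.39. The protease inhibitor Slpi, Pwwp3b and Synpo completed the 12 largest, with differences of 3.34 ± 0.77, 4.04 ± 0.72 and 3.32 ± 0.35. Calls were lost without any single control skin sample for Col11a1, Pwwp3b and Slpi, without control skin 1, 2 or 4 for Krt18, and with control skin 2 and 4 averaged for all 4. Some fits without a mixed tumor lost Col11a1 (p53 tumor 1 or pRbp53 tumor 4), Pwwp3b (pRbp53 tumor 4) and Slpi (p53 tumor 1 or p53 tumor 7), and Plod2 was lost without control skin 3 and p53 tumor 7 together. The limma adjusted p reached 0.105 for Col11a1, 0.0686 for Pwwp3b, 0.141 for Slpi, 0.0616 for Krt18 and 0.0551 for Plod2.

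**Figure D1:**
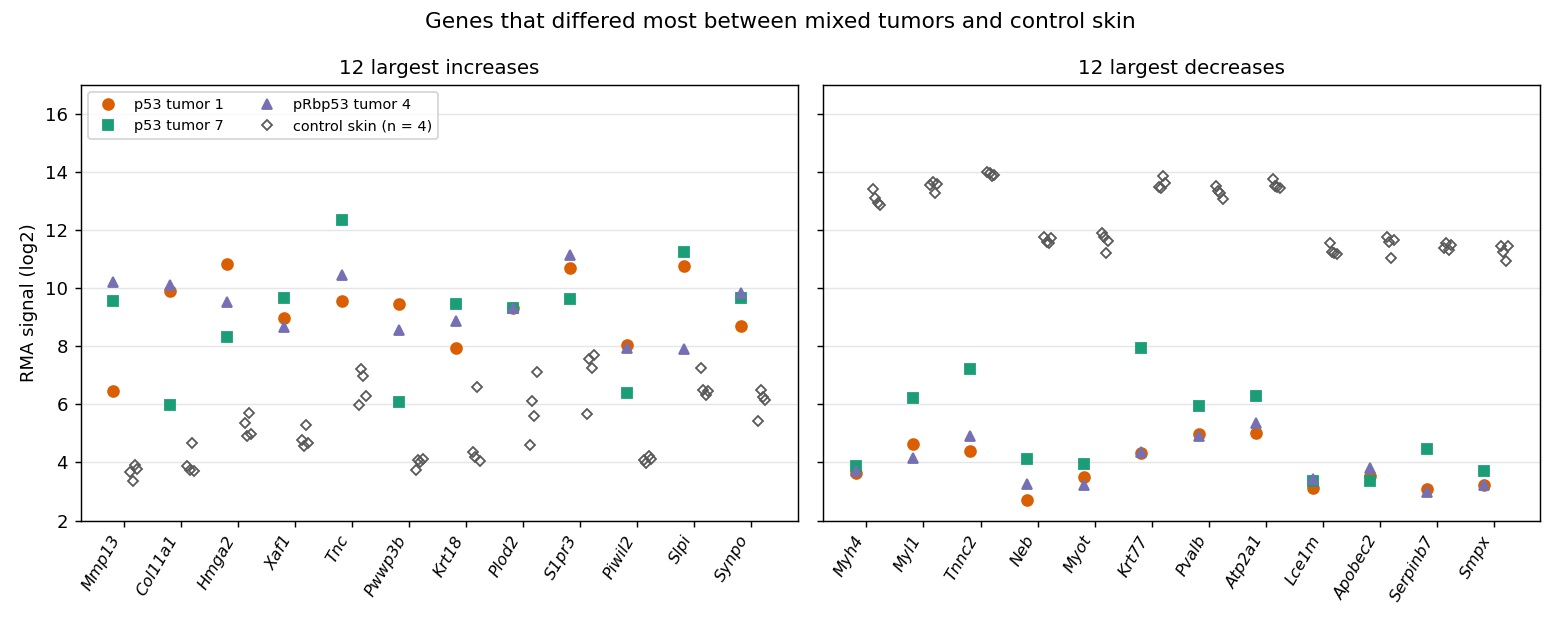
Log2 RMA signal of the 12 genes with the largest increase and the 12 with the largest decrease, with filled symbols for the 3 mixed tumors and open symbols for the 4 control skin samples. The genes were picked from those that passed without overlap between the groups. Their differences ran up to 5.06 in Mmp13 and down to -9.34 in Myh4.

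The genes with the largest decrease belong to skeletal muscle and the upper epidermis. Myh4, the myosin heavy chain of fast muscle fibers, read 3.63, 3.88 and 3.69 in p53 tumor 1, p53 tumor 7 and pRbp53 tumor 4, against 13.40, 13.12, 12.94 and 12.86 in control skin 1 to 4 (difference -9.34 ± 0.17, limma adjusted p = 2.75e-06). All 22 measured skeletal muscle genes fell, beside 6.61% of all genes. Their median difference was -7.65, beside 0.08 over all genes. Their mean signal was 4.73, 5.87 and 5.18 in the mixed tumors, against 12.47 to 12.75 in control skin. The highest tumor was p53 tumor 7, where the troponin Tnnc2 read 7.20, beside 4.38 in p53 tumor 1 and 4.92 in pRbp53 tumor 4. In whole tissue, fewer cells of a type and less RNA per cell cannot be told apart. Besides Myh4 and Tnnc2, the 12 largest decreases included Myl1, Neb, Atp2a1, Pvalb, Myot, Smpx and Apobec2, which are expressed in muscle, and Krt77, Lce1m and Serpinb7 of the upper epidermis.

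Fat and sebaceous gland genes were lower too. Adipocyte genes fell in 7 of 10 and sebaceous genes in 6 of 7, beside 6.61% of all genes. Among the adipocyte genes was Adipoq, which encodes the hormone adiponectin, with 4.91, 4.35 and 4.69 in the tumors, against 12.02, 12.60, 9.10 and 12.39 in skin (difference -6.88 ± 0.83, limma adjusted p = 0.00421). The lowest skin value was that of control skin 3. Car3, Cyp2e1 and Thrsp, which are abundant in fat, differed by -6.72 ± 0.31, -6.54 ± 0.69 and -5.20 ± 0.62. The sebaceous genes were led by the fatty acyl reductase Far2, with 3.56, 3.66 and 3.55 in the tumors, against 9.98 to 11.17 in skin. The lipid enzymes Fa2h, Scd3 and Elovl3 differed by -5.97 ± 0.29, -4.50 ± 0.36 and -4.45 ± 0.35.

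Of 24 genes of the suprabasal and cornified epidermis, 18 fell and none rose, beside 6.61% of all genes that fell. The median difference was -5.80. With control skin 2 and 4 averaged 13 of the 24 passed as lower, and without control skin 3 and p53 tumor 7, 21 did. Lor, which encodes loricrin, the main protein of the cornified envelope, read 6.21, 8.73 and 5.69 in p53 tumor 1, p53 tumor 7 and pRbp53 tumor 4, against 12.81 to 13.33 in skin. Krt77, a suprabasal keratin, read 4.31, 7.93 and 4.38, against 13.49, 13.44, 13.85 and 13.63 (difference -8.06 ± 0.85, limma adjusted p = 0.00237). In 22 of the 24 genes p53 tumor 7 was the highest of the mixed tumors. The mean of the list was 4.99, 8.03 and 4.91 in the mixed tumors, against 4.92 to 7.18 in poorly differentiated tumors, 4.61 to 4.95 in undifferentiated or spindle tumors and 11.16 to 11.34 in control skin. So p53 tumor 7 lay between the other mixed tumors and skin, above the poorly differentiated range. Krt1, a keratin of the spinous layer, read 4.09, 10.70 and 4.07, against 12.44 to 12.78 in skin, and did not pass (limma adjusted p = 0.0566).

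**Figure D2:**
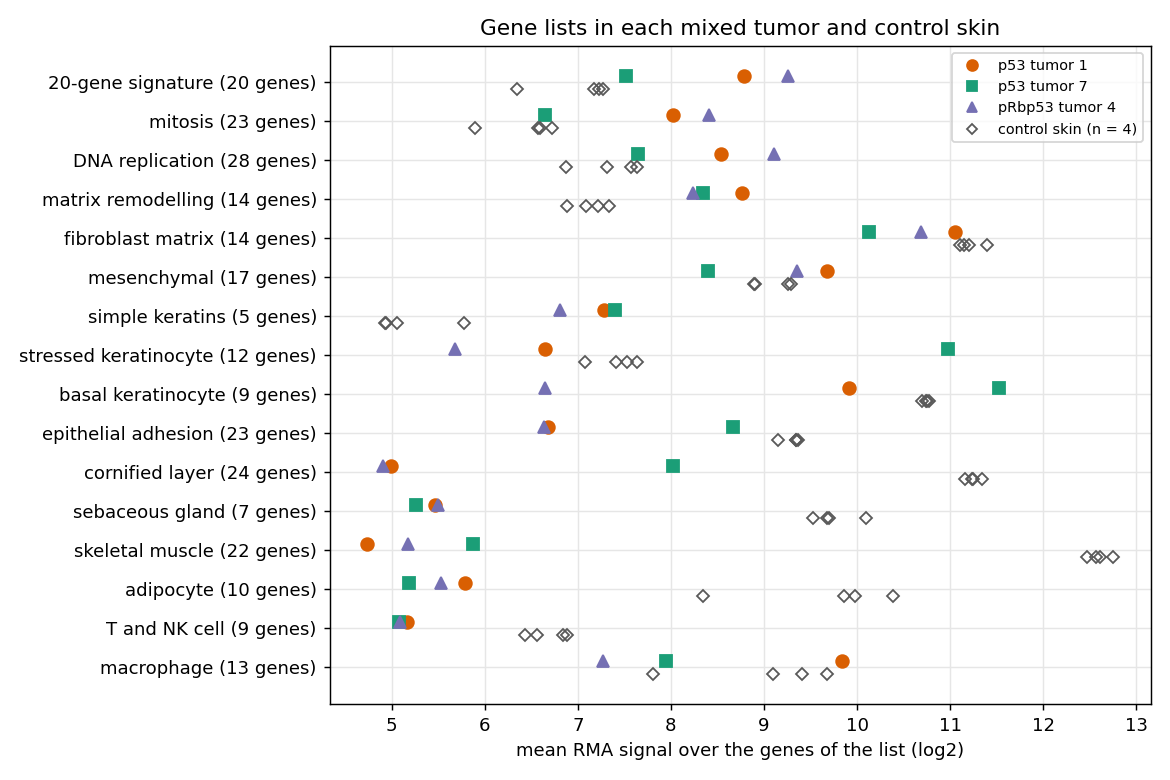
Mean log2 RMA signal over the measured genes of gene lists, with filled symbols for the 3 mixed tumors and open symbols for the 4 control skin samples. Skeletal muscle genes sit at 4.73 to 5.87 in the tumors, against 12.47 to 12.75 in skin, whereas basal keratinocyte genes span 6.64 to 11.53 within the mixed tumors.

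Basal keratinocyte genes did not share a level among the 3 tumors, and none of 9 passed. Their mean was 9.92, 11.53 and 6.64 in p53 tumor 1, p53 tumor 7 and pRbp53 tumor 4, against 6.33 to 10.51 in poorly differentiated tumors, 5.71 to 7.50 in undifferentiated or spindle tumors and 10.70 to 10.77 in control skin. The order was p53 tumor 7 above skin, p53 tumor 1 below it, and pRbp53 tumor 4 within the range of both other grades. Krt5 read 10.29, 13.67 and 5.71, against 12.72 to 13.04 in skin, and its partner Krt14 read 12.05, 13.59 and 9.32, against 12.90 to 13.18. Trp63, which encodes p63, the regulator of the basal state, read 9.72, 11.50 and 3.55, against 9.85 to 10.51 in skin. Col17a1, a collagen of the hemidesmosomes that anchor basal cells, read 9.23, 11.76 and 3.74, against 11.87 to 12.17. Each was lowest in pRbp53 tumor 4 and highest in p53 tumor 7. Their limma adjusted p were 0.344 for Krt5, 0.409 for Krt14, 0.56 for Trp63 and 0.25 for Col17a1.

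Genes with the widest range among the mixed tumors were taken as a description, from those whose control skin samples spanned at most 1 log2 unit. Of the 12 widest, 8 are expressed in epidermis. Besides Krt5, Trp63 and Col17a1 they were Perp, Dsc3, Krt15, Pof1b and Dmkn. Perp, a desmosome protein and p53 target, read 11.32, 12.05 and 3.84 in p53 tumor 1, p53 tumor 7 and pRbp53 tumor 4, against 12.64 to 12.92 in skin. The desmosomal cadherin Dsc3 read 4.42, 11.71 and 3.88, against 11.47 to 11.76, and the hair follicle keratin Krt15 read 6.65, 13.91 and 6.14, against 12.92 to 13.41. Dmkn, a suprabasal secreted protein, read 4.70, 12.09 and 4.79, against 13.26 to 13.53, and Pof1b, an actin-binding protein, read 3.27, 10.66 and 5.55, against 12.09 to 12.52. In p53 tumor 1, Krt5, Trp63, Col17a1 and Perp were therefore well above their level in pRbp53 tumor 4, while Dsc3, Krt15 and Dmkn were close to it. The 4 remaining genes, Gli1, Hhip, Comp and Frmpd1, were highest in pRbp53 tumor 4.

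**Figure D3:**
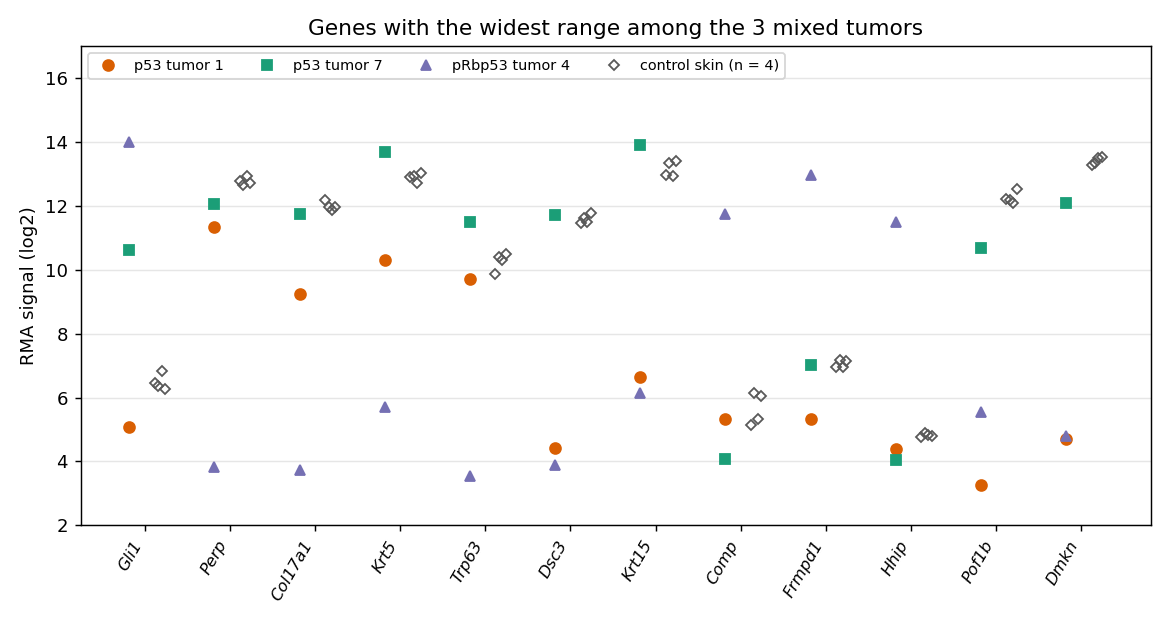
Log2 RMA signal of the 12 genes with the widest range among the 3 mixed tumors (filled symbols), of those whose 4 control skin samples (open symbols) spanned at most 1. Epidermal genes such as Krt5, at 13.67 in p53 tumor 7 and 5.71 in pRbp53 tumor 4, are lowest in a tumor other than p53 tumor 7, whereas Gli1, Comp, Frmpd1 and Hhip peak in pRbp53 tumor 4.

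Of 23 genes of epithelial adhesion and its regulators, 7 fell, beside 6.61% of all genes, with a median difference of -2.07. The list mean was 6.67, 8.67 and 6.64 in p53 tumor 1, p53 tumor 7 and pRbp53 tumor 4, against 9.15 to 9.36 in skin. The 7 were the transcription factors Grhl3 and Ovol1, the splicing factor Esrp2, the tight junction proteins Ocln and Cldn8, and Evpl and Ppl, which link junctions to keratin. Grhl3 read 4.35, 5.86 and 5.20, against 8.64, 8.84, 8.82 and 8.95 in skin (difference -3.68 ± 0.33, limma adjusted p = 0.00115), and Ocln read 4.06, 4.59 and 4.56, against 7.49, 8.05, 7.20 and 8.26. Neither gene overlapped between the groups. Cdh1, which encodes E-cadherin, read 7.53, 10.43 and 9.43, against 10.89 to 11.37, and did not pass (limma adjusted p = 0.119). Without control skin 3 and p53 tumor 7, 14 of the 23 passed as lower, and with control skin 2 and 4 averaged 5 did. The calls of Esrp2 and Evpl were lost without any single control skin sample, p53 tumor 1 or pRbp53 tumor 4 (limma adjusted p up to 0.106 for Esrp2 and 0.0917 for Evpl).

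The study named 13 genes as lower and 9 as higher in tumors of the higher grade, and these samples may have been among those it used, so the lists serve only as a description. The first list averaged 6.76, 9.75 and 6.97 in p53 tumor 1, p53 tumor 7 and pRbp53 tumor 4, against 7.81 to 9.64 in poorly differentiated tumors, 4.59 to 5.29 in undifferentiated or spindle tumors and 9.91 to 10.10 in control skin. The second averaged 10.51, 8.58 and 10.08 in the same mixed tumors, against 7.81 to 8.78 in poorly differentiated tumors, 10.45 to 11.33 in undifferentiated or spindle tumors and 9.75 to 10.04 in control skin. On the first list p53 tumor 1 and pRbp53 tumor 4 lay between the grades, and on the second p53 tumor 1 reached the range of undifferentiated or spindle tumors while p53 tumor 7 lay in the poorly differentiated range. Over all probesets, p53 tumor 1 was most like pRbp53 tumor 1 (r = 0.956) and pRbp53 tumor 4 most like pRbp53 tumor 2 (r = 0.932), both undifferentiated or spindle, while p53 tumor 7 was most like p53 tumor 2 (r = 0.923), which was poorly differentiated. The mixed tumors correlated with each other at 0.9001 to 0.9218.

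Of 17 mesenchymal genes 1 passed, a share near the 3.62% of all genes that rose. This was Fn1, which encodes fibronectin, with 12.88, 12.28 and 12.28 in the tumors, against 11.63, 11.37, 11.55 and 11.78 in skin (difference 0.90 ± 0.20, limma adjusted p = 0.0388). The call of Fn1 was lost without any single control skin sample, without p53 tumor 1, with control skin 2 and 4 averaged, and without control skin 3 and p53 tumor 7 (limma adjusted p up to 0.117). Snai1, a repressor of E-cadherin, read 6.98, 4.77 and 9.56, against 4.91 to 5.76 in skin, and was high in pRbp53 tumor 4 above all. Of 14 genes of matrix remodelling 4 rose, namely Mmp13, Plod2, the protease inhibitor Timp1 and the urokinase receptor Plaur. Timp1 read 10.61, 9.88 and 8.84, against 6.63, 6.32, 6.98 and 6.40 in skin (difference 3.19 ± 0.40, limma adjusted p = 0.00522). Mmp9, a gelatinase, read 12.11, 6.93 and 7.72, against 6.49 to 7.66, and was high in p53 tumor 1 alone. The call of Plaur was lost without any single control skin sample or p53 tumor 7 (limma adjusted p up to 0.133).

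Rb1 fell in all 3 tumors, to 8.20, 7.57 and 7.10 in p53 tumor 1, p53 tumor 7 and pRbp53 tumor 4, against 9.12, 9.54, 8.98 and 9.40 in control skin (difference -1.63 ± 0.28, limma adjusted p = 0.016). The call was lost without control skin 1, 2 or 4, with control skin 2 and 4 averaged, and without control skin 3 and p53 tumor 7 (limma adjusted p up to 0.0603). The lowest value was that of the tumor whose epithelium carried the Rb1 deletion. Whether the probeset lies in the deleted part is not given in the sources used here. Of 18 p53 target genes, Pmaip1 rose and Ccng1 and Eda2r fell, beside 3.62% of all genes that rose and 6.61% that fell. The call of Eda2r was lost without any single control skin sample or p53 tumor 7 (limma adjusted p up to 0.103). Pmaip1, which encodes the apoptosis protein Noxa, read 8.13, 9.01 and 8.26 in the tumors, against 5.90, 6.50, 5.55 and 6.44 in skin (difference 2.37 ± 0.31, limma adjusted p = 0.00637). Ccng1, which encodes cyclin G1, read 9.97, 9.27 and 8.95, against 11.71, 11.49, 11.33 and 11.55 (difference -2.12 ± 0.25, limma adjusted p = 0.00382). No CDK inhibitor of 6 passed. Cdkn2a, which encodes p16 and p19Arf, read 4.38, 7.79 and 7.56, against 3.57 to 4.89 in skin, and was at the level of skin in p53 tumor 1 alone. Its neighbour Cdkn2b, which encodes p15, read 4.42, 9.91 and 8.87, against 7.15 to 7.96, and p53 tumor 1 was the lowest of all 16 arrays.

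The 20-gene signature, which the study drew from a separate set of mouse tumors and from human tumors, holds mostly genes of proliferation. Its mean was 8.78, 7.51 and 9.26 in p53 tumor 1, p53 tumor 7 and pRbp53 tumor 4, against 8.97 to 9.31 in poorly differentiated tumors, 8.15 to 10.14 in undifferentiated or spindle tumors and 6.35 to 7.28 in control skin. The value of p53 tumor 7 was below that of every other tumor. Birc5, Tpx2 and Mcm4 rose, beside 3.62% of all genes, and the median difference was 1.42. Of the 20 genes, 11 did not overlap between the groups, beside 26.3% of all genes. Birc5, which encodes survivin, a protein of chromosome segregation, read 9.64, 7.59 and 8.75 in the tumors, against 5.41, 6.56, 6.69 and 6.55 in skin (difference 2.36 ± 0.52, limma adjusted p = 0.0413). The spindle assembly factor Tpx2 read 8.03, 7.44 and 9.17, against 5.83, 6.53, 6.32 and 6.58, and Mcm4, a subunit of the replicative helicase, read 9.77, 10.07 and 10.56, against 8.19, 9.11, 8.52 and 9.18. Birc5 and Tpx2 were lowest among the tumors in p53 tumor 7. The calls of all 3 were lost without any single control skin sample, that of Birc5 also without p53 tumor 1 or pRbp53 tumor 4, that of Tpx2 without p53 tumor 1, and that of Mcm4 without p53 tumor 7 or pRbp53 tumor 4 (limma adjusted p up to 0.103 for Birc5, 0.109 for Tpx2 and 0.118 for Mcm4). With control skin 2 and 4 averaged, none of the 20 passed, and without control skin 3 and p53 tumor 7, 12 did.

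Promoter sequence is shown for Birc5, because of the 3 signature or mitosis genes that passed it was the 1 with an entry in the table used. The RefSeq window runs from 250 bases before to 50 after the start of the gene on GRCm38.p6 (chr11:117848987-117849286, plus strand), and capitals mark the GC box, GGGCGG on either strand.
Birc5: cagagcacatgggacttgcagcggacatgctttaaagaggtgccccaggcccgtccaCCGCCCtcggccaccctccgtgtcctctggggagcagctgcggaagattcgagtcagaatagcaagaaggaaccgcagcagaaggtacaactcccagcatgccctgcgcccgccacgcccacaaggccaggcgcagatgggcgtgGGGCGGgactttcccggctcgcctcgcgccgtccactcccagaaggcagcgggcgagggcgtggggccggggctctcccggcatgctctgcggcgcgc
The window held 2 GC boxes, a motif present in 35.7% of all 32851 windows. It held no CCAAT, present in 37.4% of windows, and no TTTGAA, letters of the cell cycle genes homology region, present in 17.9%, on either strand.

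Means of the mitosis, replication and repair lists were likewise lowest in p53 tumor 7. None of 23 mitosis genes passed, with a median difference of 1.36, and their mean was 8.02, 6.65 and 8.41 in p53 tumor 1, p53 tumor 7 and pRbp53 tumor 4, against 5.89 to 6.72 in control skin. Without control skin 3 and p53 tumor 7, 13 of them passed as higher. Ccna2, which encodes cyclin A2, read 10.22, 7.07 and 9.49 in the tumors, against 6.54 to 7.79 in skin, so that p53 tumor 7 lay inside the skin range. Of 28 DNA replication genes Cdc45 and Tk1 rose, beside 3.62% of all genes. Cdc45, which activates the replicative helicase, read 7.95, 7.40 and 7.37, against 5.42, 5.66, 5.72 and 5.82 (difference 1.92 ± 0.19, limma adjusted p = 0.00177). Of 11 DNA repair genes Brca1, the ubiquitin ligase Rad18 and the mismatch repair gene Msh6 rose. Brca1 read 7.41, 6.44 and 7.61, against 4.03, 4.97, 5.11 and 5.43 in skin (difference 2.27 ± 0.41, limma adjusted p = 0.019). Of 13 ribosome biogenesis genes the nucleolar proteins Nolc1 and Gnl3 rose, by 1.23 ± 0.26 and 1.12 ± 0.22, but none of the 13 passed with control skin 2 and 4 averaged or without control skin 3 and p53 tumor 7. Both calls were lost without control skin 1, 2 or 3 or pRbp53 tumor 4, and that of Nolc1 also without p53 tumor 1 or p53 tumor 7 (limma adjusted p up to 0.109 for Nolc1 and 0.0963 for Gnl3). Tk1 was lost without any single control skin sample, p53 tumor 1 or pRbp53 tumor 4 (up to 0.114), Rad18 without control skin 1 (0.0521), Brca1 without control skin 2 (0.0636) and Msh6 without control skin 1 or 2 (up to 0.0538), all as limma adjusted p.

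Keratinocyte genes of wounds and stress set p53 tumor 7 apart. The list mean was 6.65, 10.97 and 5.68 in p53 tumor 1, p53 tumor 7 and pRbp53 tumor 4, against 5.68 to 9.49 in the other 9 tumors and 7.07 to 7.64 in control skin. In all 12 genes p53 tumor 7 was the highest mixed tumor. Krt16, a keratin of wound edges, read 5.06, 11.94 and 5.21, against 6.10 to 7.68 in skin, Krt6b read 4.40, 12.17 and 4.10, against 4.58 to 6.44, and Hbegf, a ligand of the EGF receptor, read 7.12, 10.91 and 6.67, against 5.97 to 6.62. Of the 12 genes Slpi rose and the cytokine gene Il1f9 fell. The call of Il1f9 was lost without control skin 1, 2 or 4 (limma adjusted p up to 0.0558). Genes in which p53 tumor 7 exceeded the other 15 arrays by most, named after their values were seen, included the beta-defensin Defb3 (8.62, above the next array by 4.86), the AP-1 factor Fosb (8.99, by 4.57) and the cornified envelope gene Sprr2d (10.15, by 4.18). They also included the hair follicle factor Hoxc13 (10.41, by 3.76) and Tbx1 (12.11, by 3.74). Hypoxia genes averaged 9.67, 11.43 and 9.89 in the mixed tumors, against 9.53 to 9.71 in skin, again highest in p53 tumor 7. Of 14 of them P4ha1 rose and Aldoa fell. For the wound and stress list and the hypoxia list, 1 call each way is near the 3.62% and 6.61% of all genes that rose and fell. Such calls are no result about the list. The array of p53 tumor 7 has the widest actin gap, and the part of RNA quality in these levels was not tested.

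Genes that stood highest in p53 tumor 1 were fewer. It exceeded the other 15 arrays by over 1 log2 unit in 39 genes, beside 269 in p53 tumor 7 and 290 in pRbp53 tumor 4. The largest gaps, named after their values were seen, included the synaptic adhesion protein Slitrk1 (8.75, above the next array by 3.04), the angiopoietin-like protein Angptl7 (11.30, by 2.26) and the NADPH oxidase Nox4 (9.48, by 1.57). It was the lowest array for the complement inhibitor Serping1 (5.85, below the next by 2.70), the nonmuscle myosin Myh10 (5.67, by 2.46) and the stromal protease Fap (4.43, by 1.98). Macrophage genes averaged 9.84, 7.95 and 7.27 in the mixed tumors, against 7.81 to 9.67 in skin. Among the mixed tumors they were highest in p53 tumor 1. That level lay within the 8.51 to 10.32 of undifferentiated or spindle tumors, and poorly differentiated tumors read 7.48 to 8.14.

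High levels of Hedgehog target genes marked pRbp53 tumor 4. Hedgehog ligands bind the receptor Ptch1 and thereby release the transducer Smo, which lets the Gli transcription factors act. Gli1, Ptch1 and the decoy receptor Hhip are themselves target genes, and in skin the pathway is known from hair follicle growth and basal cell carcinoma. The genes described here were chosen after the values of Gli1 and Hhip were seen, and 14 of 15 were measured. Of the ligands, Shh read 5.63, 5.32 and 5.85 in p53 tumor 1, p53 tumor 7 and pRbp53 tumor 4, against 5.07 to 7.14 in the other 9 tumors and 5.06 to 5.31 in control skin. Ihh and Dhh read at most 4.84 and 5.28 in the mixed tumors, and up to 5.10 and 6.36 in the other 9. Ptch1 read 8.70, 9.29 and 13.95, against 7.80 to 10.41 in the other 9 tumors and 9.12, 9.32, 9.50 and 9.04 in skin. Hhip read 4.39, 4.05 and 11.48, against 3.85 to 8.16 in the other 9 tumors and 4.76 to 4.90 in skin. Both receptors were high in pRbp53 tumor 4 alone of the mixed tumors.

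Gli1 read 5.08, 10.62 and 13.99 in p53 tumor 1, p53 tumor 7 and pRbp53 tumor 4, against 4.65 to 6.80 in the other 9 tumors and 6.44, 6.35, 6.83 and 6.28 in skin. It was therefore high in p53 tumor 7 too, where Ptch1 and Hhip were not. Gli2 read 8.78, 10.37 and 10.95, against 7.50, 8.15, 8.15 and 7.93 in skin (difference 2.10 ± 0.49, limma adjusted p = 0.0498). The inhibitor Sufu rose by 1.06 ± 0.24, and the co-receptor Cdon differed by -1.52 ± 0.21 and fell. The calls of Gli2 and Sufu were lost without any single control skin sample, p53 tumor 7 or pRbp53 tumor 4 (limma adjusted p up to 0.14 for Gli2 and 0.136 for Sufu). The co-receptor Gas1 read 13.02, 11.42 and 7.60, against 11.17 to 11.58 in skin, and was lowest of all 16 arrays in pRbp53 tumor 4. Among the 14 genes, 5 had their highest value of the series in pRbp53 tumor 4, namely Ptch1, Hhip, Kif7, Gli1 and Gli2, beside 10.9% of all genes. The values of Gli1 and Hhip prompted the list, so this count is a description and no support for it. Gli1 also belongs to the run of genes on chromosome 10 described below. The median difference from skin over the 14 was 0.77.

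Some cartilage and bone genes, also chosen after values were seen, had their highest value in the same tumor. Of 16 measured none passed. The highest of all arrays was pRbp53 tumor 4 in 8 of them, beside 10.9% of all genes, p53 tumor 1 in 2, beside 5.01%, and another array in the other 6. Col2a1, the main collagen of cartilage, read 5.94, 5.21 and 10.87 in p53 tumor 1, p53 tumor 7 and pRbp53 tumor 4, against 4.85 to 6.26 in the other 9 tumors and 5.01 to 6.28 in skin. Ibsp, a sialoprotein of bone matrix, read 3.54, 3.30 and 10.12, against 3.21 to 5.70 and 3.22 to 3.58, and Sp7, the osteoblast transcription factor osterix, read 5.02, 5.24 and 9.75, against 4.82 to 5.36 and 4.51 to 5.11. The cartilage regulator Sox9 read 8.59, 9.99 and 10.56, against 6.98 to 9.23 and 7.89 to 8.68, and was high in p53 tumor 7 as well. Comp, a cartilage matrix protein, read 5.34, 4.07 and 11.76, against 3.82 to 12.06 and 5.14 to 6.13, so another tumor exceeded pRbp53 tumor 4. The same held for Col9a1 (5.99, 5.53 and 8.17, up to 11.56 in the other 9 tumors), Cnmd (5.69, 4.14 and 4.75, up to 9.82) and Dmp1 (8.10 in pRbp53 tumor 4, up to 8.14), which encode proteins of cartilage or bone matrix, while Acan, the proteoglycan aggrecan, was highest in p53 tumor 1 (8.93, 4.90 and 6.68). The largest gaps of pRbp53 tumor 4 to the other 15 arrays were in Psd2 (10.86, above the next array by 7.05), the steroid enzyme Hsd11b2 (10.45, by 5.97), the serotonin receptor subunit Htr3a (11.31, by 5.68) and Frmpd1 (12.96, by 5.53).

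**Figure D4:**
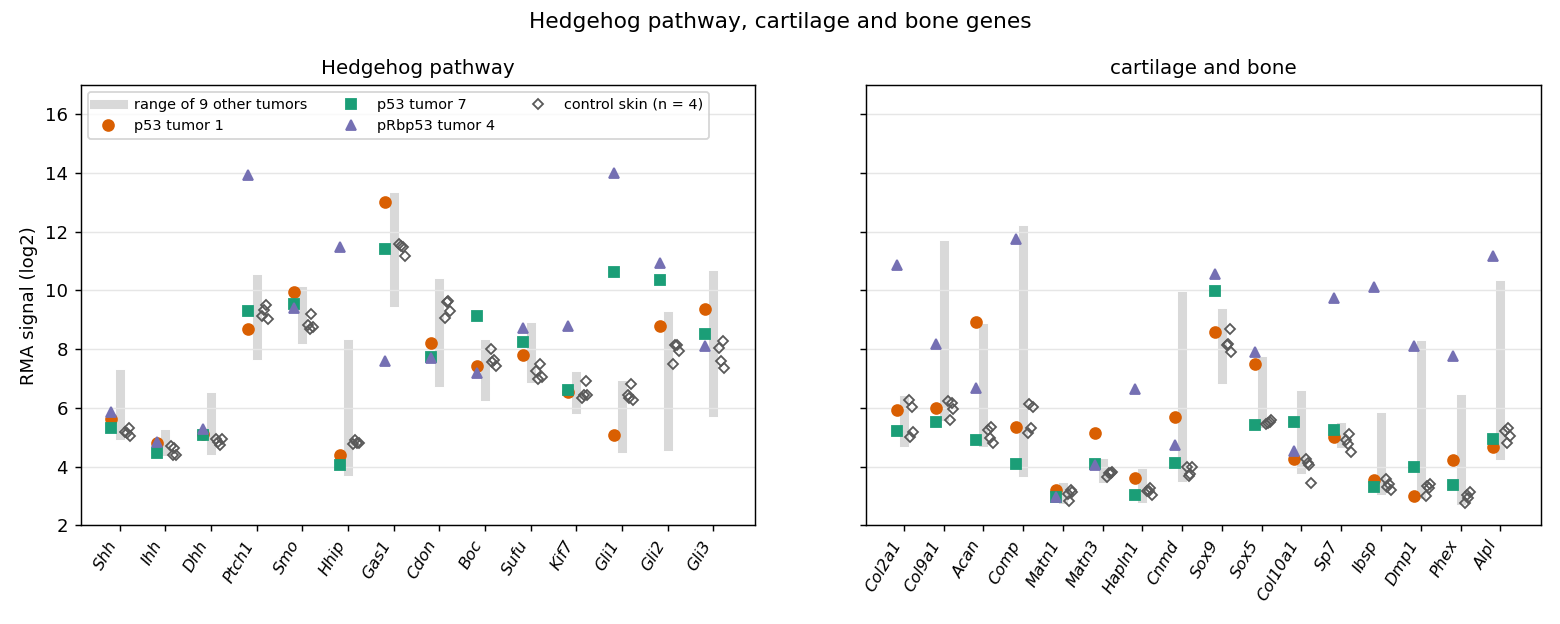
Log2 RMA signal of 14 Hedgehog pathway genes and 16 cartilage and bone genes, with filled symbols for the 3 mixed tumors, a grey bar for the range of the other 9 tumors and open symbols for the 4 control skin samples. In pRbp53 tumor 4, Ptch1 at 13.95, Hhip at 11.48, Col2a1 at 10.87 and Ibsp at 10.12 stand above the bar, while Gli1 does so in both pRbp53 tumor 4 and p53 tumor 7.

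In the RefSeq order of genes on chromosome 10, most measured genes around Gli1 were high in the same pair of tumors. This run was noticed in the data and is described without a test. Its ends, and those of the stretch from Prim1 to Itga7 below, were set after the values were seen. The counts within them are therefore a description and no support. From Atp23 to Zbtb39 lie 37 measured genes, of which 32 were higher in pRbp53 tumor 4 and 29 in p53 tumor 7 than in any of the other 14 arrays, with 27 in common. Over all genes these shares were 12% and 11.8%. Their median difference from the mean of control skin was -0.09 in p53 tumor 1, 1.68 in p53 tumor 7 and 3.29 in pRbp53 tumor 4. In 30 of the 37 genes pRbp53 tumor 4 was above p53 tumor 7, and none of the 37 passed in the comparison with control skin.

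Cdk4, which with D-type cyclins phosphorylates pRb, is a member of this run and read 9.97, 11.87 and 14.19 in p53 tumor 1, p53 tumor 7 and pRbp53 tumor 4, against 9.42, 9.37, 9.58 and 9.53 in skin and at most 11.18 in the arrays other than p53 tumor 7 and pRbp53 tumor 4. The stress factor Ddit3 read 8.27, 12.96 and 13.10, with at most 9.06 in those arrays, and Stat6, the transcription factor of interleukin 4 signaling, read 9.20, 11.29 and 12.71, with at most 10.23. The serine and glycine enzyme Shmt2 read 8.46, 11.11 and 13.30, with at most 9.79. In each of them p53 tumor 1 stayed with the other arrays. In 3 genes of the run neither tumor exceeded the other 14 arrays, namely the inhibin subunits Inhbe, with 4.43, 4.39 and 4.27, and Inhbc, with 4.76, 4.69 and 4.71, and the glycolipid enzyme B4galnt1, with 8.46, 7.05 and 8.98 and up to 9.26 elsewhere.

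The pair differed beyond the run. Past a group of retinol dehydrogenase genes, 44 measured genes from Prim1 to Itga7 were higher than in the other 14 arrays in 27 cases in p53 tumor 7 but in 3 in pRbp53 tumor 4, with median differences from control skin of 1.13 and 0.08. Baz2a, a chromatin protein, read 8.50, 10.35 and 9.28 in p53 tumor 1, p53 tumor 7 and pRbp53 tumor 4, with at most 9.38 elsewhere, and the ubiquitin ligase Rnf41 read 7.62, 9.68 and 7.89, with at most 8.42. On the other side of Atp23, the monocarboxylate transporter Slc16a7 read 5.96, 9.35 and 4.71. DNA copy number was not measured in these samples.

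Windows of 15 neighbouring genes gave a wider view, as the median difference of a tumor from the median of the other 11 tumors. The highest window of pRbp53 tumor 4 was the one around Mars1 on chromosome 10, at 3.99, and the next chromosome reached 1.52. In p53 tumor 7 the highest window held the Sprr and Lce genes of the epidermis on chromosome 3, at 3.61, followed by a window around Chrd on chromosome 16, at 2.10, and the chromosome 10 run, at 1.89. Over the 598 genes of chromosome 16 the median difference was 0.31 in p53 tumor 7, beside -0.15 to 0.12 in the other 11 tumors. A larger median, 0.44, was that of chromosome 12 in p53 tumor 4, which was poorly differentiated. In p53 tumor 1 the highest window, around Steap4 on chromosome 5, reached 1.21, and the same window reached 2.92 in p53 tumor 3. High windows were not particular to the mixed tumors. The highest window of each of the other 9 tumors ran from 1.01 in p53 tumor 5 to 3.43 in pRbp53 tumor 5.

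**Figure D5:**
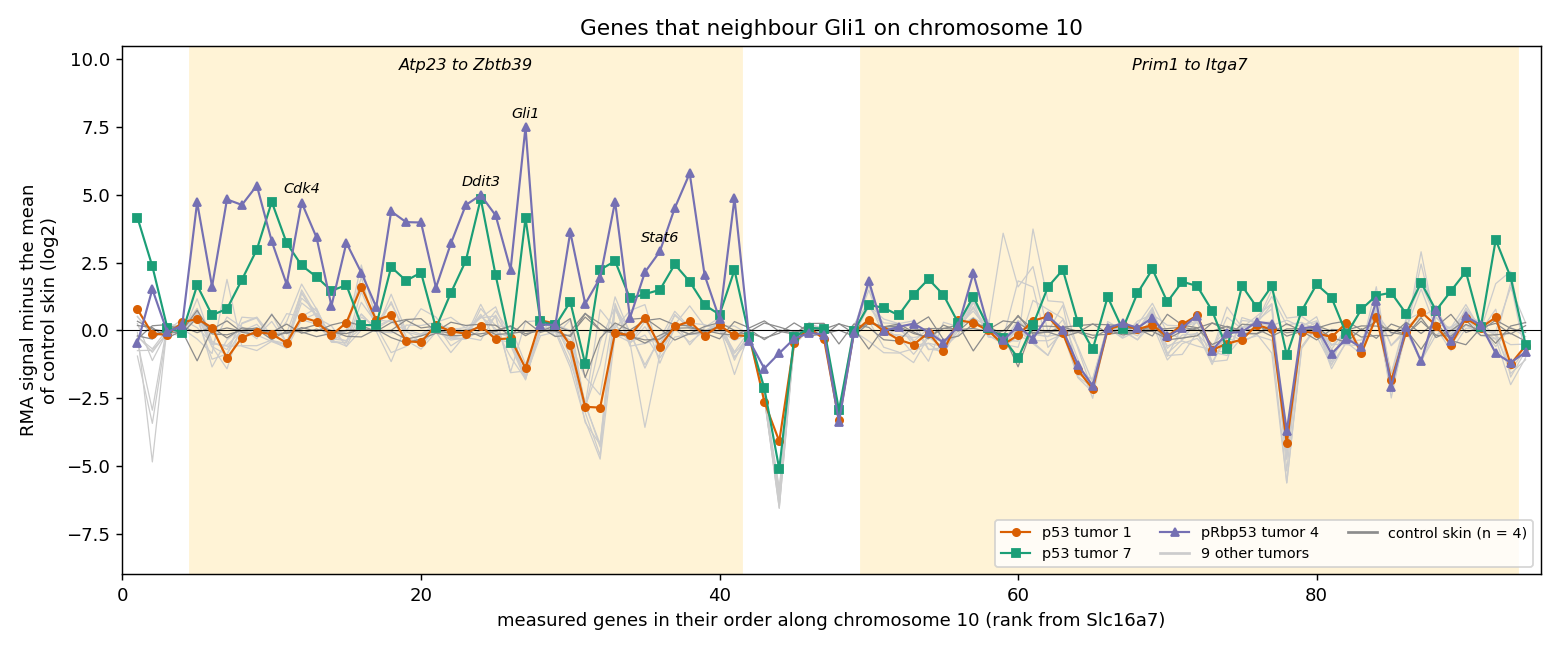
Log2 RMA signal minus the mean of control skin for 94 measured genes in their order along chromosome 10, in color for the 3 mixed tumors and grey for the other 9 tumors and control skin. Between Atp23 and Zbtb39 pRbp53 tumor 4 and p53 tumor 7 lie above the rest in most genes, with medians of 3.29 and 1.68, and between Prim1 and Itga7 p53 tumor 7 does, with 1.13.

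Immune genes mostly read lower or did not pass. T and NK cell genes fell in 6 of 9, beside 6.61% of all genes. Among them was Cd3g, a chain of the T cell receptor complex, with 4.63, 4.11 and 4.23 in p53 tumor 1, p53 tumor 7 and pRbp53 tumor 4, against 7.71, 9.04, 7.75 and 8.72 in skin (difference -3.98 ± 0.37, limma adjusted p = 0.00134). The Langerhans and dendritic cell list held 12 genes, and Cd207, Cd209a and Clec10a fell, beside 6.61% of all genes. With control skin 2 and 4 averaged, 2 of the 12 passed as lower. Cd207, the lectin langerin, read 5.60, 5.28 and 5.02, against 8.82, 9.77, 8.20 and 9.44 in skin, without overlap. Mast cell genes fell in 3 of 8, beside 6.61% of all genes, but in 1 with control skin 2 and 4 averaged. None of 13 macrophage and 6 B cell genes passed. Of 12 chemokine genes the receptor Cxcr4 rose, beside 3.62% of all genes. Cxcr4 read 7.86, 7.96 and 9.11, against 5.39, 6.17, 5.19 and 5.28 (difference 2.80 ± 0.37, limma adjusted p = 0.0065). Of 7 neutrophil genes the lectin Clec4d rose, by 2.35 ± 0.48. The call of Clec4d was lost without any single control skin sample, and that of Cd209a without control skin 1, 2 or 4 or any single mixed tumor (limma adjusted p up to 0.0997 for Clec4d and 0.114 for Cd209a).

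Among other tissue lists, smooth muscle genes fell in 4 of 8, and p53 tumor 7 was again high, with list means of 6.09, 8.85 and 6.57 in p53 tumor 1, p53 tumor 7 and pRbp53 tumor 4, against 8.73 to 9.44 in skin. Of 9 melanocyte genes the pigment enzyme Dct fell, with 4.21, 4.21 and 3.97, against 6.32 to 7.76, and of 12 endothelial genes the receptor Tek fell, with 5.20, 6.64 and 5.88, against 7.86 to 8.42. Of 4 Schwann cell genes, Ncam1, a neural adhesion molecule, rose, while the myelin genes Mbp and Pmp22 fell. In the EGF family the ligand Btc and the receptor Erbb2 fell among 9, with differences of -3.94 ± 0.19 and -1.23 ± 0.21. Of 15 hair follicle genes the transcription factor Foxn1 fell, with 4.26, 4.69 and 4.26, against 5.17 to 5.31. For hair follicle, endothelial and melanocyte genes 1 call is near the 6.61% of all genes that fell, so it is no result about the list. In the respiration list Uqcrc1 and Ndufs7, subunits of the respiratory chain, fell among 13. The call of Foxn1 was lost without control skin 1, 2 or 4 (limma adjusted p up to 0.0695), that of Ncam1 without any single control skin sample, p53 tumor 1 or pRbp53 tumor 4 (up to 0.119), and those of Erbb2 and Uqcrc1 without control skin 2 (0.0553 and 0.0528).

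Against the other 9 tumors no probeset separated the mixed tumors, 0 of 45037 (0.0%) in limma, with 3480 below an unadjusted p of 0.05 and a lowest adjusted p of 0.0503. A fit over all 16 arrays called 129, and the fit without p53 tumor 1 called 120. The median difference was 2.62 for basal keratinocyte genes and -0.82 for mitosis genes, without a call for any member. Only p53 tumor 7 lay outside the range of the other 9 tumors. Its basal keratinocyte mean was 11.53, against 5.71 to 10.51, and its mitosis mean 6.65, against 7.21 to 9.52. In p53 tumor 1 and pRbp53 tumor 4 these means were 9.92 and 6.64, and 8.02 and 8.41.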

How the data were processed

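RNA of 16 samples had been measured on Affymetrix MOE430 2.0 arrays. The authors made the deposited log2 signal intensities with RMA, whose version is not given in the sources used here. Of 45101 probesets, 45037 were tested after 64 array controls were left out. GEO's platform annotation gave 1 gene symbol to 34945 of them, several to 932 and none to 9160. A gene (18193 in all) is represented by its brightest probeset over the 16 arrays. Trp53 is not reported here.

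Groups followed the histology labels. Linear models (limma 3.58.1, R 4.3.3, two-sided, Benjamini-Hochberg over all probesets, adjusted p of 0.05) compared mixed tumors with control skin, and mixed with other tumors. Both were tested on simulated data over 45037 probesets each. The first recovered 32.0% of 200 probesets changed by 1 and 75.5% of 200 changed by 2, the second 45.5% and 81.5%. The simulated noise was normal, with an equal spread in both groups. In these data the spread could differ, as for the basal keratinocyte mean (SD 2.49 in mixed tumors and 0.03 in control skin). Precision is limited by the number of arrays.

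The tumors and the 38 gene lists (478 genes, 447 measured) were chosen with earlier results of these data known. Named genes are Rb1, the 12 largest differences each way among genes that passed without overlap, up to 4 passing genes per list by size of difference, and the 12 widest ranges among mixed tumors; a promoter was sought for up to 4 passing signature or mitosis genes. All other genes were named after their values were seen, Hedgehog, cartilage and bone genes included. No gene passed for the planned 5 each way against other tumors. Gene order and the promoter came from RefSeq (GRCm38.p6). Whether title numbers shared by mixed tumors and skin pair the samples is not stated. Correlations of deviations were 0.07 and -0.02 for the 2 shared numbers, too few pairs to decide it. Alternatives covered normalization, prior, weights, filter, threshold, covariates, another test and each array left out, and, chosen after seeing the data, control skin 2 and 4 averaged, and control skin 3 left out with p53 tumor 7. Figures were drawn with matplotlib 3.10.9.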

Additional observations from a re-analysis of the deposited data

Results flagged for a closer look

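A gap rule that chance meets in about 1 of 20 groups was applied to 38 values in control skin. These were the list means, except that of the sex-linked genes, and the actin gap. In 4 of them, all list means, 1 sample lay far from the other 3. The 20-gene signature averaged 6.35 in control skin 1, against 7.17 to 7.28 in the other control skin samples. Epithelial adhesion genes averaged 9.15 in control skin 1, against 9.34 to 9.36. Simple keratins averaged 5.78 in control skin 3, against 4.93 to 5.06, and respiration genes 11.20 in control skin 3, against 11.45 to 11.49. Control skin 3 is also the control sample with the wide actin gap and the high Csn2 signal, whose part in these values was not tested. The mixed tumors are too few for this rule.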

How the results depend on the processing

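For mixed tumors against control skin, 2846 to 4409 probesets passed with all 16 arrays in the fit, the brighter probesets, quantile normalization, median centring, a trend and robust prior, array weights, the actin covariate, or without control skin 3 and p53 tumor 7. Median centring gave 1500 higher and 1908 lower. The count was 378 with a two-group test without moderation, 1601 with control skin 2 and 4 averaged, 1191 at an adjusted p of 0.01, 5335 at 0.1, and 1575 to 5052 with an array left out. With the title number as a replicate block 300 probesets passed, and whether the number pairs the samples is not known. Against the other tumors 0 became 129 with all 16 arrays, 1 with quantile normalization, 1 with the other prior, 1 at an adjusted p of 0.1, 14 against poorly differentiated tumors alone, 8 against undifferentiated or spindle tumors alone, and 1 to 120 with a mixed tumor left out. The cause was not tested. No named gene with a call changed direction in any of these fits. Named genes without a call could do so. For Comp, p53 tumor 1 and p53 tumor 7, at 5.34 and 4.07, lay below the control skin mean of 5.66, so its direction rested on pRbp53 tumor 4. Of 85 named genes with a call, 11 kept it in the test without moderation, 26 with the replicate block, 60 with control skin 2 and 4 averaged, 72 without control skin 3 and p53 tumor 7, 56 to 77 with an array left out, and 76 to 85 in the other fits over all probesets. Small changes are the limit of this number of arrays.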
